A study of Mus musculus with 5 samples.

Results

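The imprinted loci described here are 10 genes chosen by name from the classical imprinted domains of the mouse, out of the 55450 genes of the annotation: H19, Igf2, Igf2r, Kcnq1ot1, Cdkn1c, Phlda2, Grb10, Peg3, Gnas and Meg3. H3K27me3 peaks were read at each gene within 3000 bp of any annotated start site and within the gene body. The data are separate peak lists from 4 ChIP-seq libraries of dermal fibroblasts of wild-type (WT) skin, cultured before fixation, with 2 libraries labelled E14 and 2 labelled E17. The study's methods name these stages E14.5 and E18.5, give a C57BL/6 background, and name another medium, shearing method and library kit than the labels. The labels do not say whether the libraries came from separate animals or cultures, so every p-value measures only the spread between libraries.

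In an imprinted gene, the maternal and paternal copies are used unequally. At the classical domains a control region carries DNA methylation on the copy from a single parent, whereas some other imprinted genes are known to depend on maternal H3K27me3 instead. H3K27me3 is the repressive histone mark that Polycomb repressive complex 2 places, often over CpG-rich promoters of silent genes, and it is known to lie on the silent copy of several imprinted genes. The lists do not separate the parental copies, so a peak says only that the mark was found above the local background on at least part of the chromatin. A gene without a peak lay below the threshold of that list, and the mark may still be there.

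The lists held 21546 and 16574 peaks at E14 and 10429 and 7107 at E17, and covered 52.8, 32.1, 20.0 and 14.3 Mb, or 1.93%, 1.17%, 0.732% and 0.524% of the assembled chromosomes. The files hold no read counts, so the reads behind a peak cannot be read from them and no counting interval is given. Of the 8 fibroblast marker genes, including Col1a1, Pdgfra and Dcn, 0 were marked in all 4 libraries and all 8 lacked a peak near their starts in every library, where a gene is called marked in a library with a peak no farther than 3000 bp from any of its start sites. Of the markers of other lineages, those marked in all 4 libraries were 1 of 5 for keratinocytes (Krt1), 1 of 3 for endothelium (Kdr), 1 of 3 for melanocytes (Sox10), 1 of 3 for muscle (Myod1) and 0 of 2 for immune cells. Most of the rest, among them Krt5, Trp63, Pecam1, Pmel and Ptprc, lacked a peak in every library, as the fibroblast genes did.

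The 10 genes divided evenly. Igf2, Cdkn1c, Phlda2, Grb10 and Gnas were marked in all 4 libraries, and H19, Igf2r, Kcnq1ot1, Peg3 and Meg3 in none. Of the 7 protein-coding members, 5 were marked. The 3 long non-coding RNAs (H19, Kcnq1ot1 and Meg3) were all without a peak near a start. The share over non-coding genes was not computed, and 3 genes are too few to speak for their class. Across all annotated genes, 11.6% were marked in both E14 libraries and 7.11% in both E17 libraries, against 5 of the 10 members at each stage. Among protein-coding genes, 12.0% were marked in all 4 libraries. Over all genes, 83.6% had no peak in any library. The windows of the members are wider than usual, with a median of 13134 bp around 6 start sites, against 6001 bp around 1 start site for all genes and 8812 bp around 3 for protein-coding genes. The median window was 19787 bp for the marked members and 12014 bp for those without a peak, but the groups overlapped: marked Phlda2 and Cdkn1c have 6610 and 7740 bp and unmarked Igf2r has 18003 bp. The part of window width in the share of marked members was not tested.

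In the full lists, no marked member lost all of its peaks near a start site between the stages. Of the 6441 genes marked in both E14 libraries, 25.1% had no peak in either E17 library, and 0 of the 5 marked members did. With so few members, this count cannot be told apart from that share. With peaks of a −log10 q-value of at least 5 only, the count in both E17 libraries was 2, Igf2 and Phlda2. Cdkn1c and Gnas were then marked at E14 alone, and the share over all genes was not computed at that threshold. The marked members did differ in how much of the window was covered, which is shown gene by gene in kilobases (kb).

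**Figure D1:**
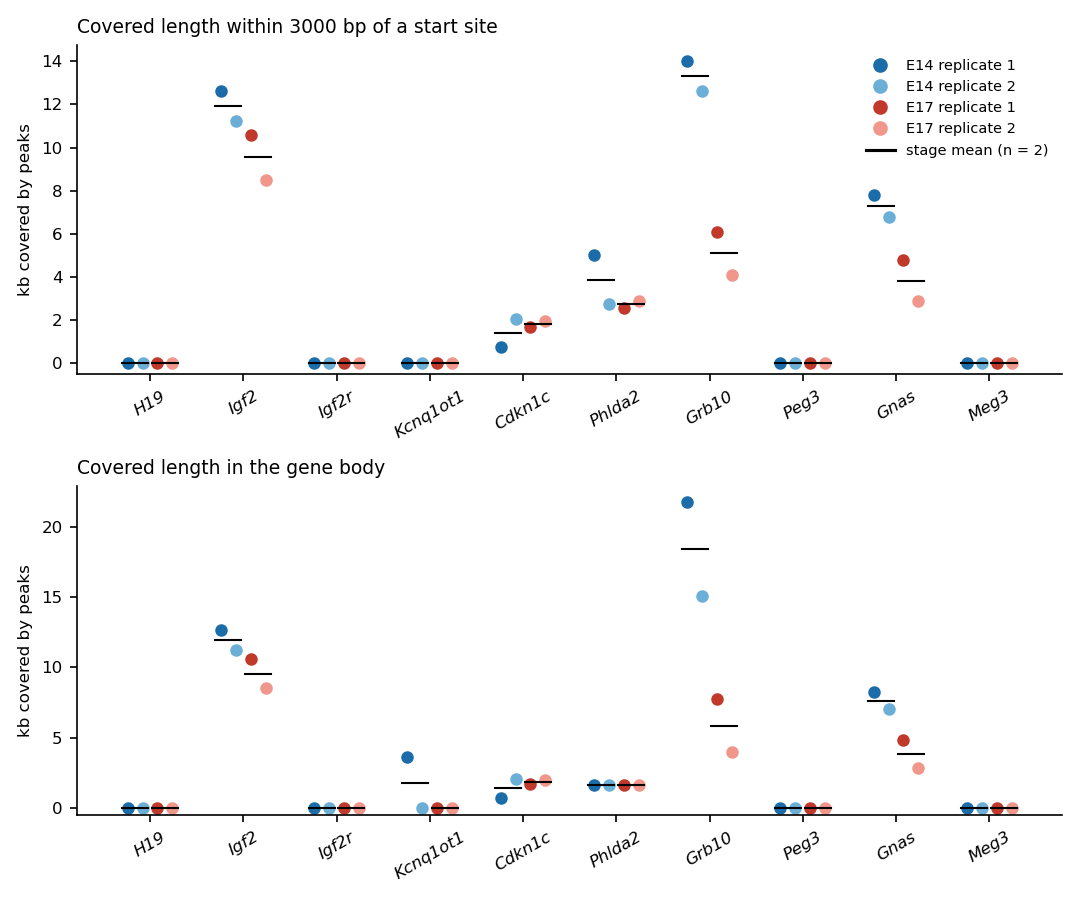
Length covered by H3K27me3 peaks at each of the 10 imprinted genes, in kb, within 3000 bp of a start site (top) and in the gene body (bottom); points are libraries and bars are stage means (n = 2). Igf2, Grb10 and Gnas were lower in both E17 libraries, Cdkn1c and Phlda2 overlapped near their starts, and H19, Igf2r, Peg3 and Meg3 lay at 0 throughout.

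To place the peaks on sequence, 6 promoters are printed, each from the 250 bp upstream of a RefSeq start site (GRCm38.p6, the same assembly as mm10). They run 5′ to 3′ on the strand of the gene, with each CpG in capitals. The central Igf2 stretch leaves out the 34 bp next to its RefSeq start, which are annotated as untranslated sequence. Of the 10 members, 8 had an entry in the promoter table, with 16 promoters in all. The 3 Igf2 promoters were chosen because the peaks covered the first in all libraries, the second at E14 alone and the third in none, the Grb10 promoter because its cover differed between replicates, and those of Gnas and Igf2r because they are CpG-rich and were never covered.
Igf2 central promoter, chr7:142661306-142661521, minus strand: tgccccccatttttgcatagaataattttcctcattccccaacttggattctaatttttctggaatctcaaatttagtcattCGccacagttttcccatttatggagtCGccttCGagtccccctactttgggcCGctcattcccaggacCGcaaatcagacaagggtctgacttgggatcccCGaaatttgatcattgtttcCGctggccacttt
Igf2 downstream promoter, chr7:142657497-142657746, minus strand: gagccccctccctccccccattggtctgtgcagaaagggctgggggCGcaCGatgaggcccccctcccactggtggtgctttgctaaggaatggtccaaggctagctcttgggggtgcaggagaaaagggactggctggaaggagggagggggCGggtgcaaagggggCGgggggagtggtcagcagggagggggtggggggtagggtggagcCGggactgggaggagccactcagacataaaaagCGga
Igf2 upstream-most promoter, chr7:142666817-142667066, minus strand: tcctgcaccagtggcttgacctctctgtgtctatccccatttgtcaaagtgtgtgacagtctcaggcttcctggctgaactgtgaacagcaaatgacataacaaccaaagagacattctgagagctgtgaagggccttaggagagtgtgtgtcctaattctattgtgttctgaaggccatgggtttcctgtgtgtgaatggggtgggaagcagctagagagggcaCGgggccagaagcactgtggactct
Grb10 CpG-rich promoter, chr11:12037421-12037670, minus strand: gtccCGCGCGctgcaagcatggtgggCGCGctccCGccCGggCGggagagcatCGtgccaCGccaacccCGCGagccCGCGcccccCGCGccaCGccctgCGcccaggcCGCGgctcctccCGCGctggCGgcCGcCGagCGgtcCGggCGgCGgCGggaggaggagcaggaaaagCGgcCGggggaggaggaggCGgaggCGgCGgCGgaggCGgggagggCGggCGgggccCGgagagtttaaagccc
Gnas downstream promoter, chr2:174327518-174327767, plus strand: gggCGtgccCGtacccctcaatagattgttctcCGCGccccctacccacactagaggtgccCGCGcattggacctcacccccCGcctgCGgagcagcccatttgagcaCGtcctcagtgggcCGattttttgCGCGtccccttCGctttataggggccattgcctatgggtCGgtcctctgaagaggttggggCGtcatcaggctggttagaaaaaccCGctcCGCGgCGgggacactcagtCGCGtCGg
Igf2r promoter, chr17:12769707-12769956, minus strand: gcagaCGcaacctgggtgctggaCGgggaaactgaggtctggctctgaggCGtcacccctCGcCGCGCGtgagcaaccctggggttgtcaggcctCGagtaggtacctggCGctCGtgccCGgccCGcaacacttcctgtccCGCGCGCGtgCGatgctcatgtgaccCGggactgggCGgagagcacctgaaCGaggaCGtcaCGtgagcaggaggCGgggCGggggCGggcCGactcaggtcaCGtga

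The central Igf2 stretch holds 7 CpG in 216 bp and lay inside a peak in all 4 libraries, the downstream stretch holds 6 in 250 bp and was covered whole in both E14 libraries and in neither E17 library, and the upstream-most holds 1 and was never covered. The Grb10 stretch holds 40 CpG, the most of the 16 promoters, and was covered in E14 replicate 1 and E17 replicate 2 only. Those of Gnas and Igf2r hold 22 and 27 CpG. The Gnas stretch is not the promoter farthest downstream. Another, at 174329756-174330005, holds 29 CpG and was never covered. It is not printed because all of its 250 bp are annotated as untranslated sequence. The median promoter of the RefSeq table, among 32851, holds 6 CpG in 250 bp, with quartiles of 2 and 16. Searched on both strands, TGCCGC, the motif bound by the imprinting factor ZFP57 when methylated, occurred in 1 of the 16 member promoters, at Meg3, and in 8.68% of all promoters. A YY1 motif, GCCATNTT, occurred in 0 of the 16 and in 3.91% of all promoters. A match or its absence in these windows says nothing about binding.

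Igf2 encodes insulin-like growth factor 2, a fetal growth factor made from the paternal copy, and lies on the minus strand at chr7:142650766-142666816 (ENSMUSG00000048583.16). It carried broad peaks, which covered 78.7% and 70.0% of the gene body at E14 and 66.0% and 53.0% at E17, all of it near start sites. Covered length near its start sites was 12626 and 11239 bp at E14 and 10593 and 8500 bp at E17. Both E17 libraries were lower than both E14 libraries. The stage means were 11932 ± 981 bp and 9546 ± 1480 bp (SD, n = 2), a decrease of 20.0%, with p = 0.333 in a two-sided exact permutation test. With 2 libraries against 2 there are 3 splits, and 0.333 is the smallest p they can give, so no member could pass a conventional threshold.

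The main Igf2 peak ran from 142653853 to 142666478 in E14 replicate 1, from 142656094 to 142666352 in E14 replicate 2, from 142657761 to 142666341 in E17 replicate 1 and from 142657797 to 142666296 in E17 replicate 2. Its upstream edges lay within 182 bp of each other, between 338 and 520 bp inside the upstream-most start site, while its downstream edges spread over 3944 bp. In both E14 replicate 2 and E17 replicate 1, 2 shorter peaks of 389 to 1212 bp followed downstream of the main peak. The stretch covered in all 4 libraries was the whole of the shortest peak, 8500 bp, with 1560 bp in exons and 6940 bp in introns, and made up 66.8% of the bases covered in any library. Of the 9 annotated start sites, 7, 6, 5 and 4 lay inside a peak in the 4 libraries, the E14 libraries first. The starts at 142661870, 142661305, 142661205 and 142659489 were inside in all 4, and the starts at 142657496 and 142657466 were inside in both E14 libraries and 265 to 331 bp outside the nearest peak in the E17 libraries. The upstream-most start, 142666816, and the one farthest downstream, 142653030, were outside in every library. The main peak also overlapped the annotated genes Igf2os and Gm49394 in all 4 libraries, so its cover cannot be assigned to Igf2 alone.

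**Figure D2:**
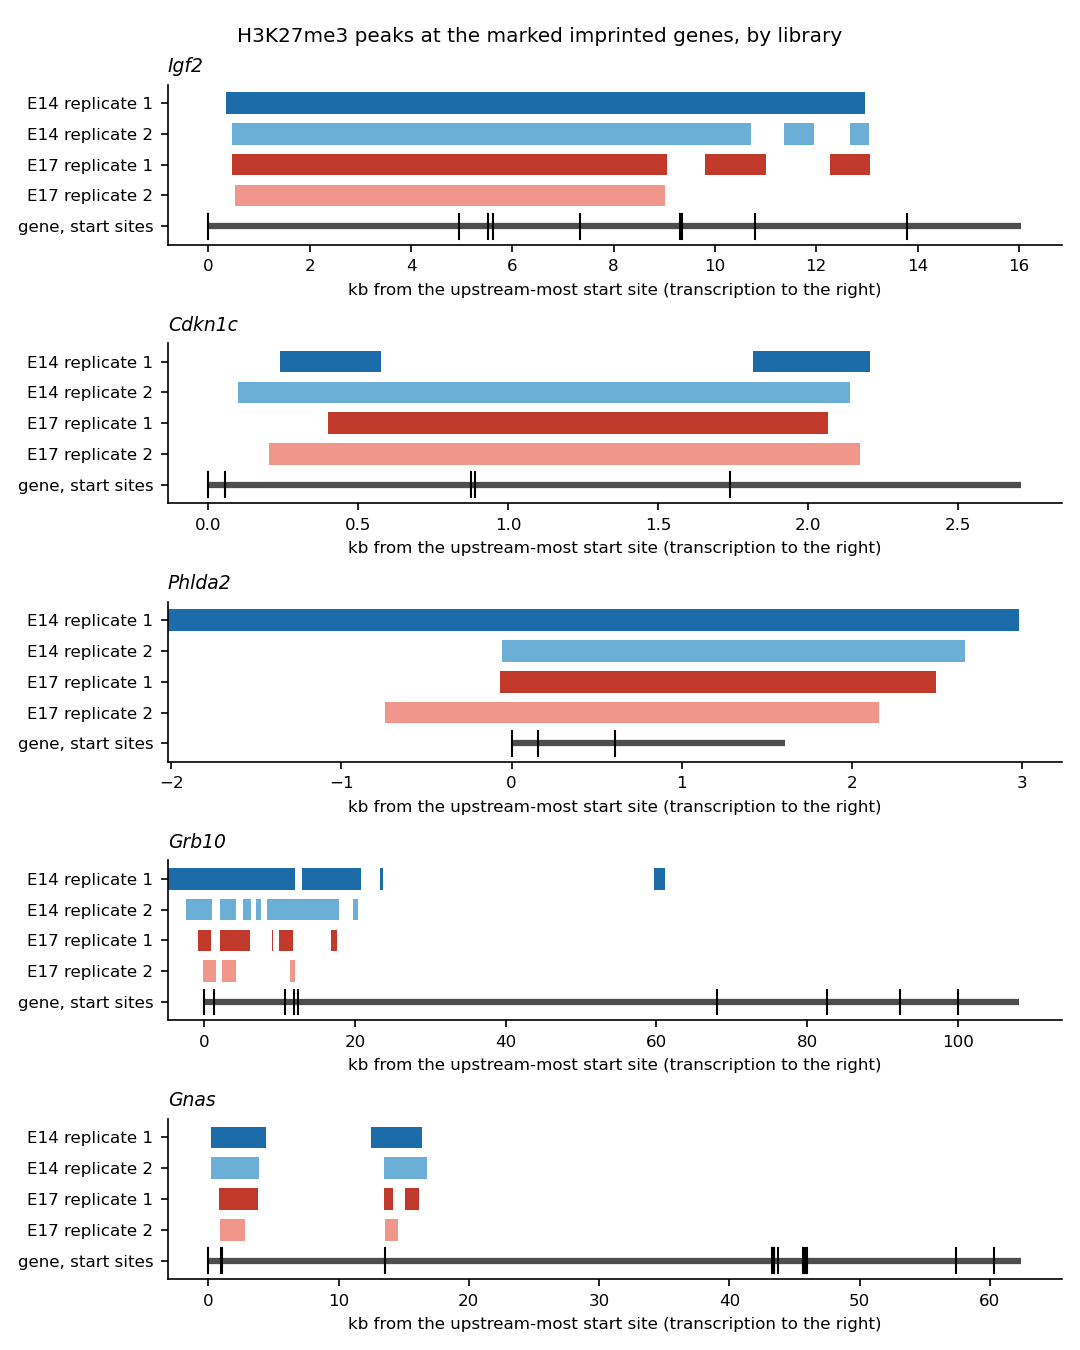
H3K27me3 peaks at the 5 marked genes in each library, by distance in kb from the upstream-most start site, with transcription to the right; the grey line is the gene and the ticks are its start sites. The Igf2 peaks share their upstream edge and differ downstream, and the Gnas peaks form 2 clusters at the upstream end. Where Grb10 has its widest peak in E14 replicate 1, the other libraries have separate, shorter peaks.

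H19, the maternally expressed long non-coding RNA that shares enhancers and a control region with Igf2, lies at chr7:142575529-142578143 on the minus strand. It had no peak near its 7 start sites or in its body in any library. The nearest peaks were those over Igf2, 75.7, 75.6, 75.6 and 79.7 kb from an H19 start. Across the 168 kb domain that holds H19, Igf2 and Ins2, peaks covered 10.4%, 6.70%, 6.31% and 5.06%, and outside E14 replicate 1 all of this lay over Igf2. Igf2r, at chr17:12682406-12769664 on the minus strand, encodes the receptor that removes IGF2 and is expressed from the maternal copy. It had no peak near its 3 start sites or in its 87259 bp body. The nearest peaks were 65.2, 65.0, 101 and 102 kb from a start. In the Igf2r domain of 441 kb, the solute carrier gene Slc22a3 was marked in all 4 libraries, and its neighbour Slc22a2 was marked in both E14 libraries, with 2019 and 382 bp, and in neither E17 library.

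Kcnq1ot1, Cdkn1c and Phlda2 share a domain on chromosome 7, so they are not independent loci. Kcnq1ot1 is a long non-coding RNA made from the paternal copy, which silences its neighbours along the same chromosome, and lies at chr7:143203458-143296549 on the minus strand, inside and antisense to Kcnq1. It had no peak near its start in any library. In E14 replicate 1 alone, 3 peaks of 1304, 590 and 1702 bp lay in its body, 3.86% of its length, and ranked at the 29.0, 32.8 and 38.5 percentile of that list by fold enrichment. The nearest of them was 74.5 kb from the start, and in the other libraries the nearest peak was 140, 140 and 147 kb away. A peak has no strand, so these 3 belong equally to Kcnq1. The gene Kcnq1 itself, which encodes a potassium channel, was marked near its own starts, with 6156, 5739, 4031 and 3736 bp.

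Cdkn1c encodes p57Kip2, an inhibitor of cyclin-dependent kinases, and lies at chr7:143458339-143461050 on the minus strand. Its covered length was 730 bp in E14 replicate 1, 2043 bp in E14 replicate 2, 1669 bp in E17 replicate 1 and 1973 bp in E17 replicate 2. The stages overlapped, with means of 1386 ± 928 bp and 1821 ± 215 bp (exact permutation p = 1.00, two-sided, n = 2 per stage). The low value came from E14 replicate 1, where the list holds 2 short peaks of 393 and 337 bp, 1240 bp apart, in place of the single peak found in the other libraries. Those short peaks stood at the 93.8 and 90.4 percentile of their list by fold enrichment. Of the 5 start sites, 0 lay inside a peak in E14 replicate 1 and 3 in each of the other libraries. Without E14 replicate 1 the difference turned, to a decrease of 10.9%, and with peaks within 3000 bp merged it was a decrease of 9.24%.

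Phlda2 encodes a pleckstrin homology domain protein that limits placental growth, and lies at chr7:143501545-143503150 on the minus strand. A single peak covered the whole 1606 bp gene and all 3 start sites in all 4 libraries. The peak was 5007 bp in E14 replicate 1, 2723 bp in E14 replicate 2, 2565 bp in E17 replicate 1 and 2904 bp in E17 replicate 2. Stage means of 3865 ± 1615 bp and 2734 ± 240 bp overlapped (exact permutation p = 0.667, two-sided, n = 2 per stage), and without E14 replicate 1 the decrease of 29.2% became -0.422%. The stretch covered in all 4 libraries, 143500991 to 143503205, was 2215 bp or 44.2% of the bases covered in any. Between Kcnq1ot1 and Cdkn1c, a further peak was the strongest of the 790 kb domain in both E14 libraries, at the 97.0 and 95.7 percentile of their lists, from 143440948 to 143447703 in replicate 1. It was named after its values were seen, and the only annotated gene it overlapped was Gm27901, a short non-coding RNA. In the E17 libraries the corresponding peaks were narrower, at 3846 and 3565 bp against 6756 and 5058 bp, with percentiles of 92.4 and 82.3.

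**Figure D3:**
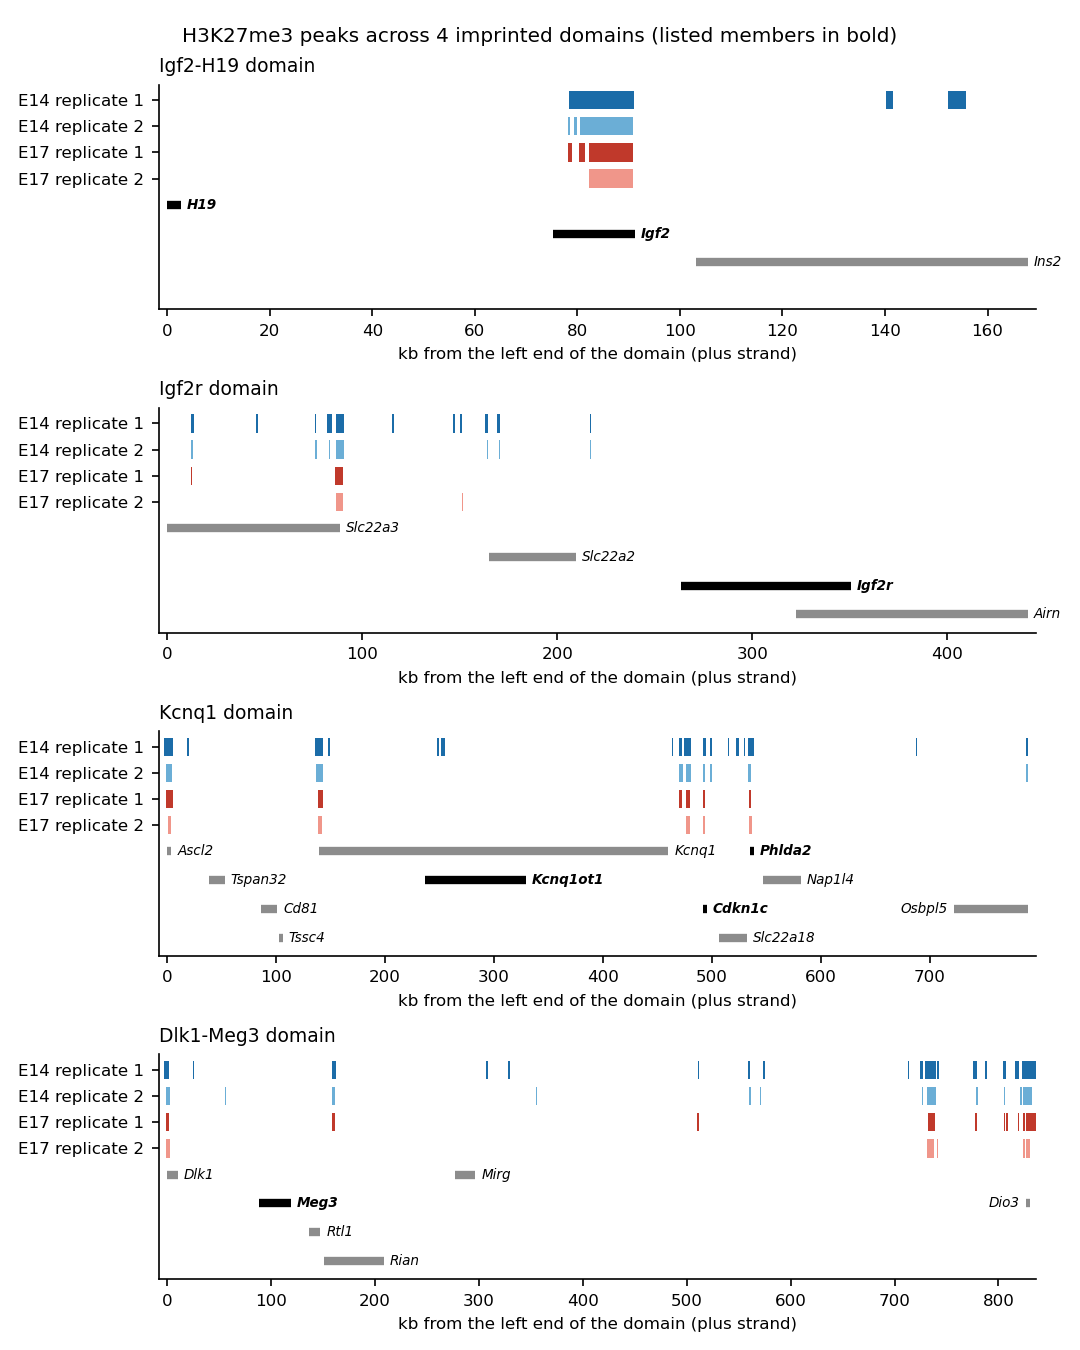
H3K27me3 peaks across the Igf2-H19, Igf2r, Kcnq1 and Dlk1-Meg3 domains in each library, by distance in kb from the left end of the domain on the plus strand; black bars are listed members and grey bars other imprinted genes of the domain. H19, Igf2r and Meg3 have no peak over them in any library, whereas Slc22a3, Ascl2, Kcnq1, Dlk1 and Dio3 in the same domains do in all 4.

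Grb10 encodes an adaptor protein that binds the insulin and insulin-like growth factor receptors, is expressed from the maternal copy in most tissues and from the paternal copy in neurons, and lies at chr11:11930508-12038683 on the minus strand. Near its start sites, 14036 and 12619 bp were covered at E14 and 6080 and 4097 bp at E17. In the 108176 bp body, the covered length was 21776, 15107, 7729 and 3962 bp. The stages did not overlap on either measure. Stage means near the starts were 13328 ± 1002 and 5088 ± 1402 bp, a decrease of 61.8% (exact permutation p = 0.333, two-sided, n = 2 per stage), and the body decreased by 68.3%. With lists of equal covered length, each limited to its top peaks by −log10 q-value, the direction turned, to 0 and 3377 bp at E14 against 5872 and 4097 bp at E17.

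In E14 replicate 1, a peak of 16938 bp, from 12026606 to 12043543, held 4 of the 9 start sites, where the other libraries had shorter peaks in the same interval. Bases covered in all 4 libraries came to 3265 bp, 11.9% of those covered in any, in 3 pieces: 12026857-12027276, 12034543-12036318 and 12037750-12038818. The last of these holds the upstream-most start, 12038683, the only start inside a peak in all 4 libraries. A further 8618 bp, or 31.3%, was covered in both E14 libraries and neither E17 library, and the longest such piece, 12021915 to 12025710, lay in an intron. The 4 start sites farthest downstream were outside every peak.

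Gnas encodes the stimulatory G protein alpha subunit and is known for several alternative first exons that differ in parental expression, with those of Nesp and the extra-large form upstream of the one for the alpha subunit. It lies at chr2:174284320-174346744 on the plus strand. Covered length near its starts was 7812 and 6762 bp at E14 and 4792 and 2869 bp at E17, with no overlap of the stages. The means were 7287 ± 742 and 3830 ± 1360 bp, a decrease of 47.4% (exact permutation p = 0.333, two-sided, n = 2 per stage). With lists of equal covered length, the cover that remained was 2869 bp in E17 replicate 2 and 0 in the other libraries, so the direction turned. All of the peaks lay at the upstream end, in 2 clusters. The first ran from 174284489 to 174288767 in E14 replicate 1, narrowed to 174285218 to 174287127 in E17 replicate 2, and held the starts at 174285256 and 174285358 in all 4 libraries. The second cluster lay around the start at 174297859, which was inside a peak in 3 libraries and 42 bp outside in E17 replicate 2. The 12 start sites from 174327570 on lay at least 26444 bp from a peak in every library, among them that of the CpG-rich promoter whose sequence is given. Of the 16 starts, 13 were outside peaks in all 4 libraries. Nespas, the antisense RNA of the locus, has start sites within 3000 bp of the same peaks in every library, so the cover cannot be assigned to a strand.

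Peg3, at chr7:6703892-6730431 on the minus strand, encodes a zinc finger protein expressed from the paternal copy. It had no peak, and neither did any part of its 320 kb domain with 5 imprinted genes, in any of the 4 lists. The nearest peaks were 388, 386, 1665 and 730 kb from a start site. Meg3, a maternally expressed long non-coding RNA at chr12:109541001-109571726 on the plus strand, had no peak near its 11 start sites or in its body, and the nearest peaks were 62.1, 31.9, 62.6 and 85.5 kb away. The Dlk1-Meg3 domain of 828 kb was nevertheless covered over 5.39%, 2.72%, 2.18% and 1.46% of its length. There Dlk1, a paternally expressed regulator of fat cell formation, was marked with 4913, 4444, 2308 and 3511 bp, and Dio3, which inactivates thyroid hormone, with 6193, 5426, 4962 and 4554 bp.

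Fold enrichment is the ratio of the pileup in a peak to the local background. The lists hold no read counts, and whether these libraries were brought to a common depth is unclear. Fold enrichment was therefore compared only as a rank or percentile within the library's own list, where percentile 100 is the strongest peak. The strongest Igf2 peak stood at the 96.3 and 92.8 percentile at E14 and at 97.6 and 93.3 at E17, the stages overlapping. The Phlda2 peak stood at 93.6, 87.0, 93.8 and 83.2, also with overlap. These 2 genes had stage means of 94.5 ± 2.5 and 95.4 ± 3.1 for Igf2 and 90.3 ± 4.6 and 88.5 ± 7.5 for Phlda2. By percentile, the other 3 were lower in both E17 libraries. Gnas stood at 92.4 and 85.5 against 60.8 and 66.0, with means of 88.9 ± 4.9 and 63.4 ± 3.7. Its strongest peak lay in the second cluster in replicate 1 of each stage and in the first cluster in replicate 2. Each stage mean of Gnas therefore mixes separate peaks. Grb10 stood at 87.5 in both E14 libraries against 82.3 and 66.4, where the strongest peaks of the E17 libraries also differed in place. Cdkn1c stood at 93.8 and 80.4 against 72.8 and 43.3, the lowest of any marked member. Such a shift was common, since the percentile was lower in both E17 libraries for 73.4% of the 3871 genes marked in all 4 libraries and higher for 1.68%. The median over the 5 members was 93.6, 87.0, 82.3 and 66.4, against 93.6, 91.0, 84.6 and 75.7 over all 3871 genes. A percentile also depends on list length, and the E17 lists were shorter. Counted from the top of each list, Igf2 ranked 806, 1196, 253 and 480. Phlda2 ranked 1390, 2149, 652 and 1195, so both were nearer the top in both E17 lists. Cdkn1c (1335, 3254, 2841 and 4030) and Grb10 (2688, 2070, 1845 and 2385) overlapped between stages. Gnas (1645, 2404, 4091 and 2415) was farther from the top in both E17 lists.

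**Figure D4:**
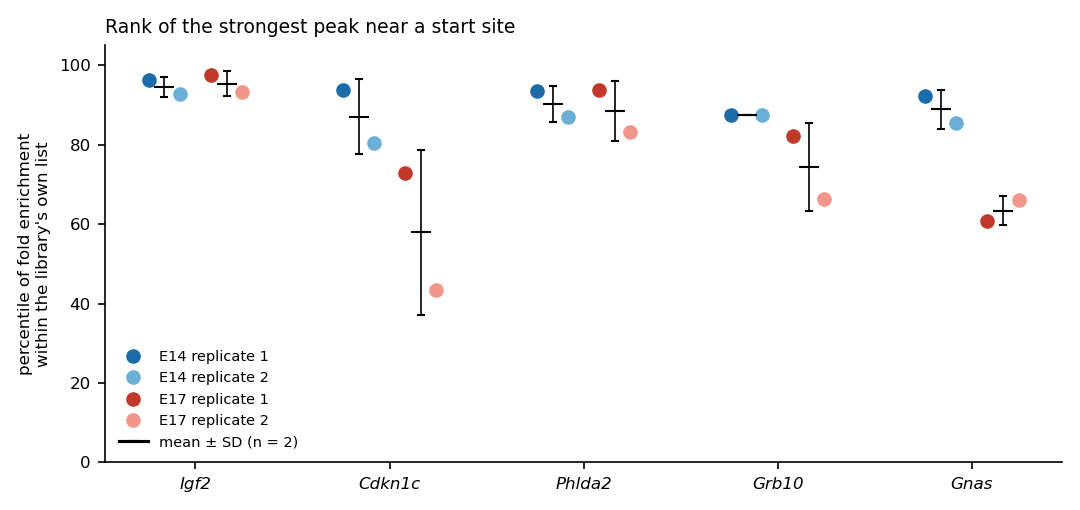
Percentile of fold enrichment, within each library's own list, of the strongest peak within 3000 bp of a start site of the 5 marked genes; points are libraries and bars the mean ± SD of a stage (n = 2). Igf2 and Phlda2 overlap between the stages, and Cdkn1c, Grb10 and Gnas are lower in both E17 libraries, where Cdkn1c falls to 43.3 in replicate 2.

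The decreases in covered length were set beside those of all genes marked in all 4 libraries. Covered length was lower in both E17 libraries at Igf2, Grb10 and Gnas, 3 of the 5 marked members, and at 74.0% of the 3871 genes marked in all 4 libraries. It was higher in both at 0 of the 5 members and at 0.542% of those genes. The median decrease was 29.2% over the 5 members and 36.0% over the 3871 genes, whose quartiles were 16.4% and 55.2%. Igf2 at 20.0%, Phlda2 at 29.2% and Gnas at 47.4% lay between those quartiles, and Grb10 at 61.8% lay above them. Cdkn1c lay below them at -31.3%, negative because its E17 mean was the higher. Summed over the members, the covered length near start sites was 40211, 35386, 25699 and 20343 bp, or 37798 ± 3412 against 23021 ± 3787 bp, a decrease of 39.1%. In gene bodies the sum was 48555, 37024, 26389 and 18910 bp, a decrease of 47.1%. These sums move with the covered length of the whole lists, from which a change at the members cannot be told apart. When each list was limited to its top peaks by −log10 q-value up to the 14.3 Mb of the shortest list, the direction turned: the decreases became -32.9% near starts and -45.1% in bodies, with E17 the higher, and 1 member (Igf2) in place of 5 was marked in both E14 libraries.

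The bases that stayed under a peak in all 4 libraries were richer in CpG, relative to base composition, than those covered in both E14 and neither E17 library at Igf2, Phlda2 and Grb10. The ratio of observed to expected CpG was 0.53 against 0.20 at Igf2, 0.63 against 0.09 at Phlda2, where the E14 part is 171 bp, and 0.47 against 0.22 at Grb10. Gnas differed in direction, with 0.57 against 0.73, and Cdkn1c had no such part to compare. The comparison was not made over other marked genes, so the difference cannot be called particular to these members, and its cause was not tested. No stretch of at least 100 bp at any of these genes was covered in both E17 libraries and in neither E14 library. Between libraries, the share of covered bases in common was 67.3% to 87.8% for Igf2, 21.8% to 93.5% for Cdkn1c, 51.2% to 93.3% for Phlda2, 34.9% to 76.7% for Gnas and 15.3% to 60.4% for Grb10. The E14 pair shared 31.5% at Cdkn1c and 60.4% at Grb10. For Igf2, the pairs within a stage shared 87.8% and 80.2% and the pairs between stages 67.3% to 82.9%, so the ranges overlapped. For Grb10, the E17 pair shared 34.6% and the pairs between stages 15.3% to 42.0%.

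The same measurements were made on a wider list of 59 other imprinted genes. Marked in all 4 libraries were 16, 2 in both E14 libraries and neither E17 library, 0 in the reverse pattern, 5 in another pattern and 36 in none. Across all annotated genes, 83.6% were marked in none. In both E14 libraries 20 of the 59 were marked, against 11.6% of all genes, and in both E17 libraries 16, against 7.11%. Among protein-coding genes, 12.0% were marked in all 4 libraries, and the part of window width was not tested for this list either. The 16 were Slc22a3, Kcnq1, Ascl2, Cobl, Nespas, Dlk1, Dio3, Asb4, Calcr, Klf14, Plagl1, Rasgrf1, Kcnk9, Zdbf2, Sfmbt2 and Smoc1, and 11 of them had less covered length in both E17 libraries, against 74.0% of all genes marked in all 4. Slc22a2 and Osbpl5, with 351 and 1111 bp at E14, were the 2 marked at E14 alone among those 20, against 25.1% of all genes marked in both E14 libraries. Of the 36 without a peak near a start, 32 had none in the gene body either, a share not computed over all genes. By domain, 4 of the 11 listed genes of the Kcnq1 domain and 2 of the 6 of the Dlk1-Meg3 domain were marked in all 4 libraries, and 0 of the 5 of the Peg3 domain. Since 83.6% of all genes were marked in none, the count in the Peg3 domain cannot be told apart from that share.

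**Figure D5:**
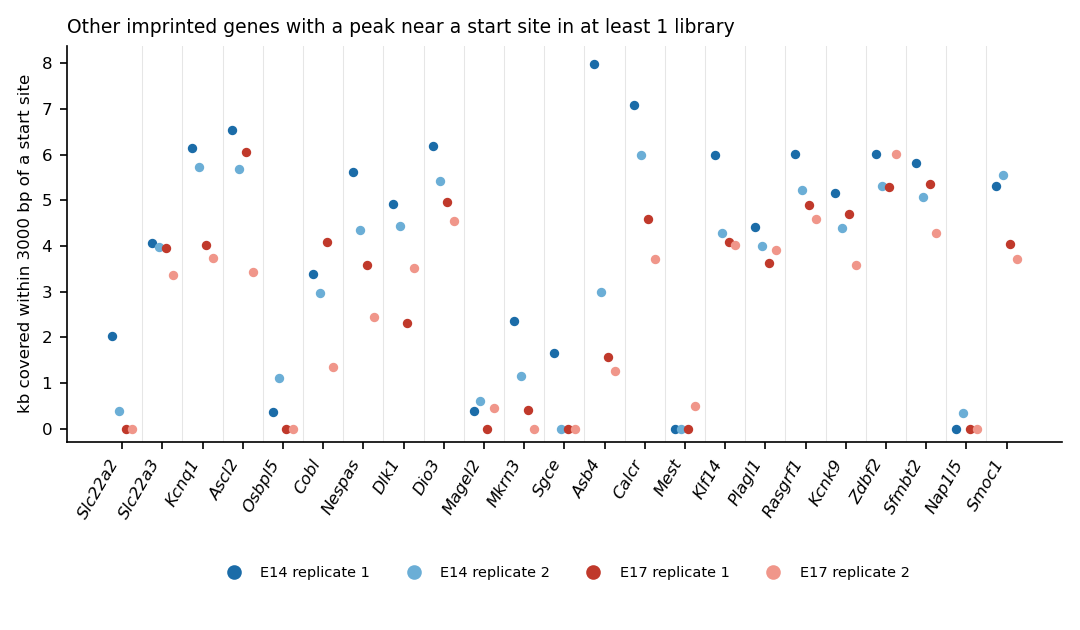
Length covered by H3K27me3 peaks within 3000 bp of a start site, in kb, at the 23 other imprinted genes with a peak there in at least 1 library; points are libraries. Slc22a2 and Osbpl5 lie above 0 in both E14 libraries and at 0 in both E17 libraries, and Asb4 in E14 replicate 1 has the longest cover, 7991 bp.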

How the data were processed

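The submitters' processing notes name Bowtie2 2.3.5.1, SAMtools 1.9, MACS2 2.2.7.1, deepTools 3.5.1 and mm10. Per the study's methods, the authors ran MACS2 in broad mode with a q-value cutoff of 0.01, here 1 list per library, and subsampled E18.5 samples to a common read depth, though whether these libraries are among them is unclear. The control is not named, and the input library was not analysed here. For each peak the authors deposited a fold enrichment (ratio), used only as a rank within its list, and −log10 p-values and −log10 q-values, used to describe or filter peaks. The lists hold no read counts, so the precision of a peak cannot be read from them.

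Gene positions and start sites came from GENCODE M21 and promoters (250 bp) from RefSeq GRCm38.p6. Covered length is the number of bases under peaks within 3000 bp of any start site, or in the gene body. Stages were compared by a two-sided exact permutation test over libraries. Named are the 10 members, genes sharing a member's peak and, of 59 further imprinted genes, those marked in all 4 libraries or at a single stage. The members and lists were chosen with earlier results of these data known. Python 3.11.15, numpy 2.4.6, scipy 1.17.1 and pysam 0.24.0 were used, and the overlap calculation was tested on simulated data. Alternatives were other thresholds, widths, windows, start sites and list lengths, merging, the replicate block and leaving out each library.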

Additional observations from a re-analysis of the deposited data

How the results depend on the processing

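Values are percent decreases from E14 to E17, negative where E17 was higher. At a −log10 q-value of at least 5, 2 members (Igf2 and Phlda2) were marked in both E17 libraries and 2 at E14 alone, the sums decreased by 62.6% near start sites and 64.6% in gene bodies, and Cdkn1c by 100%. With 1000 bp windows the sum near start sites decreased by 27.7%. With lists of equal covered length, 1 member was marked in both E14 libraries, the sums were -32.9% and -45.1%, Phlda2 was -101% and Grb10 -195%, and Gnas turned too, with 0 bp in both E14 libraries and 2869 bp in E17 replicate 2, which gives no percentage. Merging within 3000 bp gave 9.24% for Cdkn1c, and leaving out E14 replicate 1 gave 10.9% for Cdkn1c and -0.422% for Phlda2. The cause of these changes was not tested. Leaving out each library in turn, the sums ranged from 32.0% to 46.2% near start sites and from 38.3% to 55.8% in bodies, with Cdkn1c from -149% to 10.9% and Phlda2 from -0.422% to 45.4%. With lists of an equal number of peaks, 7107, the 5 members stayed marked at both stages and the sums decreased by 41.2% and 45.2%. Igf2 decreased under all 14 alternatives, by 11.2% (without E17 replicate 2) to 28.8% (without E17 replicate 1), and Gnas under the other 13, by 34.2% to 100%. The counts of marked members changed by no more than 1.5 times under 12 of 13 alternatives each.

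Replicate numbers are shared by the stages, but no label says that they mark a shared litter or day. Over 3871 genes, the deviations of replicate 1 from its stage mean correlated between stages at r = 0.190, across genes, which are not independent. With the replicate block, the mean of the decreases within numbers, the sums decreased by 39.3% and 47.3%, and Igf2, Phlda2, Grb10 and Gnas by 20.2%, 21.1%, 62.1% and 48.1%, with Cdkn1c at -62.6%.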
